A study of Drosophila melanogaster with 9 samples.

Results

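RpI1, RpI135, RpI12, Tif-IA, RpIII128, Brf and Trf encode parts of the machinery with which RNA polymerase I (Pol I) and RNA polymerase III (Pol III) make the non-coding RNAs of protein synthesis in Drosophila melanogaster. These 7 genes were taken by symbol from the 17471 genes counted by RNA-seq in wing imaginal discs, the larval epithelial sacs that form the adult wing. All 7 had enough reads to be tested. The study asked through which genes Psi, a protein that binds single-stranded nucleic acid, controls wing growth, and it set discs depleted of Psi or of the growth regulator Myc against control discs, with 3 libraries in each of the 3 groups.

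All groups carried tubulin-GAL4 (BL5138), a driver active in nearly every cell, together with temperature-sensitive GAL80 (BL7019), which keeps the driver silent until the larvae are warmed. The control genotype was tsGAL80;tubG4/+ with the further stock BL39831 listed, and the other groups carried a hairpin against Psi (V105135) or against Myc (V2947), 1 hairpin line for each target. Knockdown was limited to the last 3 days before collection, and each library was made from a pool of 60 discs gathered in lots of 20. Larvae were kept at 18 degrees C for 4 days and then at 25 degrees C for 3 days per the labels, while the study's methods name a higher second temperature for crosses with this GAL80. Their stage is given both as the middle of the third instar and as the wandering phase at its end. The control count files bear the name of the white-eyed strain W1118, and groups follow the labels.

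Pol I has a single task, the transcription of the ribosomal RNA genes in the nucleolus, whereas Pol III makes transfer RNAs, 5S ribosomal RNA and other short RNAs. Pol I is brought to its promoters by Tif-IA, the fly counterpart of RRN3, and Pol III by TFIIIB, in which Brf is the TFIIB-related subunit. In flies the TBP-related factor Trf takes the place that TBP holds in the TFIIIB of other animals. Output of both polymerases rises with growth, and Myc is known in flies and mammals to promote it. The libraries were enriched for poly(A) RNA, so the messenger RNAs of the polymerase genes were measured here and the RNAs that the polymerases make were not.

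Total gene counts lay between 26287040 and 34401160 read pairs per library, and all 13 wing disc markers reached at least 1 CPM (a gene's counts over the scaled total of all genes in that library) in every library. Psi fell from 335, 322 and 323 CPM across control libraries to 74.7, 65.7 and 61.7 CPM after Psi RNAi. Myc stood at 150, 147 and 139 CPM across control libraries and at 132, 109 and 103 CPM after Myc RNAi, lower in every Myc RNAi library but short of the threshold (log2 fold change -0.34 ± 0.09, edgeR adjusted p = 0.0146), and Psi RNAi held it at 107, 118 and 108 CPM (-0.39 ± 0.09, edgeR adjusted p = 0.0214). The study, with DESeq2 at the same threshold, reported Myc as significantly lower in Psi RNAi. Some libraries also held transcripts of other tissues. The 7 fat body markers found summed to between 707 and 11213 CPM across control libraries, 262 and 6863 CPM after Psi RNAi and 826 and 2462 CPM after Myc RNAi, highest in replicate 1 of each group, and the 9 salivary gland and gut markers, none of them at 1 CPM or more throughout, summed to between 3.49 and 1811 CPM. The 6 haemocyte markers summed to between 447 and 842 CPM across control libraries and, without overlap, to between 273 and 387 CPM after Psi RNAi, with 333 to 592 CPM after Myc RNAi. The wing disc markers summed to between 3413 and 3525 CPM across control libraries and, without overlap, to between 3795 and 3956 CPM after Myc RNAi, with 3281 to 3706 CPM after Psi RNAi. The rise in Myc RNAi was not shared by all 13. Marker zfh2 lay at 671 to 731 CPM across control libraries and at 847 to 969 CPM after Myc RNAi. Dll lay at 156 to 171 CPM and at 141 to 161 CPM. The Myc RNAi libraries also had more read pairs placed at several sites (12.3% to 15.8%, against 9.52% to 10.5% across control libraries) and more in no gene (1.56% to 1.90%, against 1.29% to 1.32%). The part of these differences in the results was not tested. Results are therefore also given without control replicate 1 and Psi RNAi replicate 1 where that changed them. Since pools of whole discs were sequenced, fewer cells of a type and less RNA per cell cannot be told apart.

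In Myc RNAi the transcripts of the 3 Pol I subunits fell most, those of Tif-IA, RpIII128 and Trf fell by less, and Brf did not pass the test. A gene was called at an edgeR quasi-likelihood adjusted p (Benjamini-Hochberg over 9235 genes) below 0.01, and each log2 fold change is given with its standard error (n = 3 libraries per group). In Myc RNAi 6 of the 7 genes were called lower and 0 higher, against 19.0% of all tested genes called, 11.4% lower and 7.6% higher. With the replicate number as a block Trf lost its call (edgeR adjusted p = 0.0114). The median log2 fold change of the 7 was -0.57 beside -0.03 for all genes. Their summed level went from 588 ± 32.2 CPM across control libraries to 335 ± 7.51 CPM (SD, n = 3).

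RpI135 (FBgn0003278, chromosome 2L, 404285 to 407969, plus strand) encodes the second-largest subunit of Pol I, which forms the catalytic core together with the largest. It stood at 96.4, 87.8 and 98.2 CPM across control libraries, 86.5, 98.3 and 91.8 CPM after Psi RNAi and 26.4, 24.6 and 28.9 CPM after Myc RNAi. The Myc RNAi libraries formed a tight group far under all others, while the Psi RNAi libraries were spread over the control range. The fall in Myc RNAi, to 28.3% of control, gave a log2 estimate of -1.82 ± 0.08 (edgeR adjusted p = 1.60e-07), and 2.28% of all tested genes had an estimate as low or lower.

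RpI1 (FBgn0019938, chromosome 2R, 14595611 to 14601216, minus strand) encodes the largest Pol I subunit. It was at 189, 167 and 186 CPM across control libraries, 164, 177 and 187 CPM after Psi RNAi and 64.0, 56.4 and 64.7 CPM after Myc RNAi. Again only the Myc RNAi libraries stood apart, with no overlap with either other group. RpI1 fell to 34.1% of control in Myc RNAi (log2 fold change -1.55 ± 0.07, edgeR adjusted p = 3.29e-07).

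RpI12 (FBgn0038903, chromosome 3R, 21777203 to 21777847, minus strand) encodes the small zinc-ribbon subunit that, in yeast, helps Pol I to cleave and release its transcript. Its levels were 12.9, 12.7 and 14.8 CPM across control libraries, 11.4, 11.8 and 12.8 CPM after Psi RNAi and 6.31, 4.83 and 6.01 CPM after Myc RNAi. It had the fewest reads of the 7 over the 9 libraries together and the widest spread in Myc RNAi (coefficient of variation 13.7%), yet all Myc RNAi values lay below all the rest. The log2 fold change was -1.24 ± 0.12 (edgeR adjusted p = 4.87e-05).

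Tif-IA (FBgn0032988, chromosome 2L, 22249876 to 22258260, plus strand) encodes the initiation factor through which growth signals are known to regulate Pol I in mammals. It was at 121, 112 and 122 CPM across control libraries, 119, 128 and 119.7 CPM after Psi RNAi and 82.2, 82.4 and 75.3 CPM after Myc RNAi. The Myc RNAi group was lower without overlap, by a smaller factor than the 3 Pol I subunits. The log2 fold change was -0.57 ± 0.05 (edgeR adjusted p = 3.56e-05), with a 95% interval of -0.69 to -0.45 that lies above those of RpI1 (-1.72 to -1.38), RpI135 (-1.99 to -1.65) and RpI12 (-1.51 to -0.96).

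**Figure D1:**
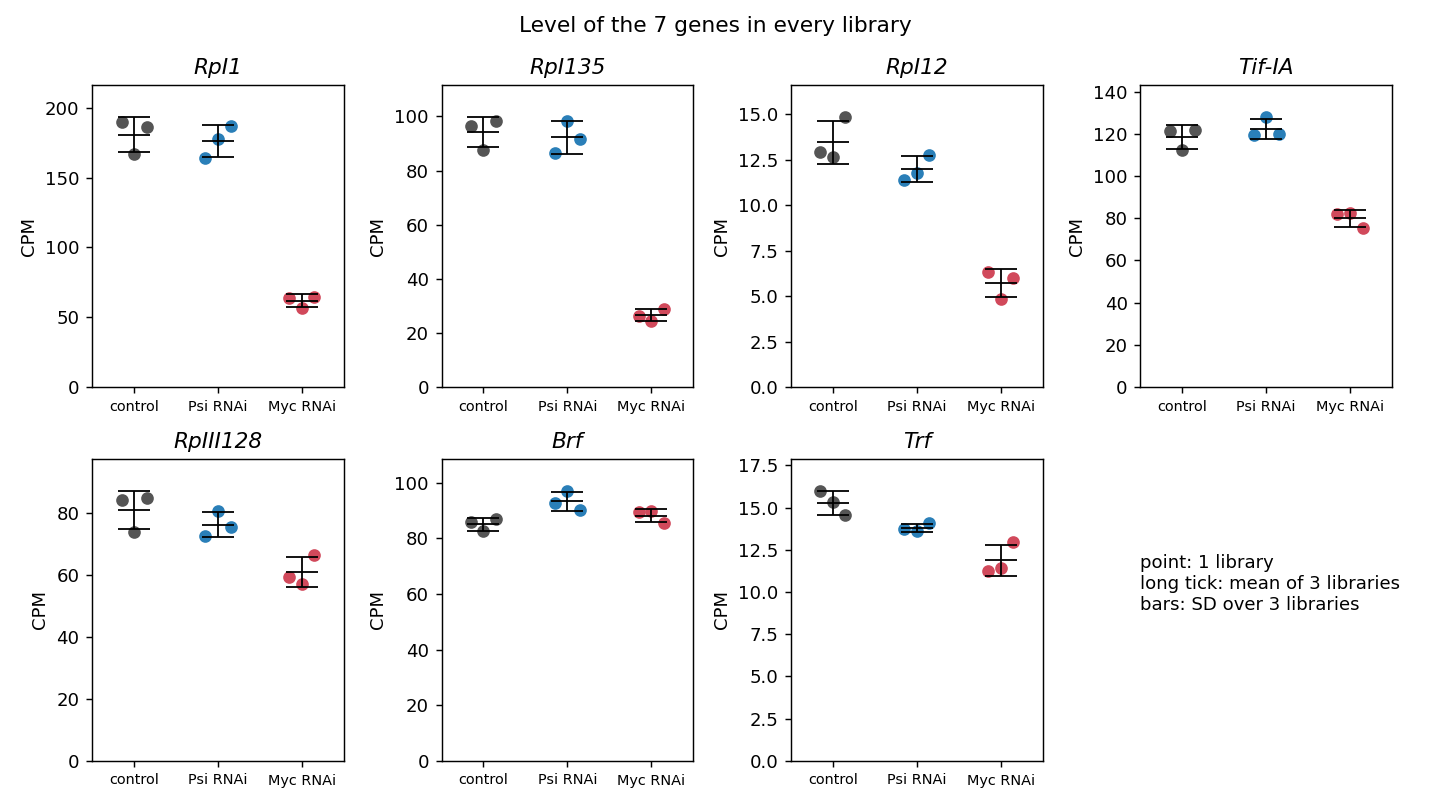
Level of each of the 7 genes in every library, in CPM on a linear axis from 0, with control, Psi RNAi and Myc RNAi side by side; points are libraries, the long tick is the mean and the bars are the SD over 3 libraries. The Myc RNAi points of RpI1, RpI135 and RpI12 sit far below both other groups, those of Tif-IA, RpIII128 and Trf sit below by less, and the Brf points of Myc RNAi (85.3 to 89.7 CPM) overlap the controls (82.5 to 86.9 CPM).

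RpIII128 (FBgn0004463, chromosome 2R, 12039041 to 12042623, plus strand) is the Pol III counterpart of RpI135. It stood at 84.0, 74.0 and 84.9 CPM across control libraries, 72.6, 80.6 and 75.4 CPM after Psi RNAi and 59.3, 57.0 and 66.4 CPM after Myc RNAi. All Myc RNAi values were lower than all others, although the gap to the lowest control was smaller than the spread within the controls. The log2 fold change was -0.41 ± 0.07 (edgeR adjusted p = 0.00261, range 4.91e-05 to 0.0152 over its alternatives). Its call was lost without control replicate 1 (adjusted p = 0.0130), control replicate 3 (0.0152), Myc RNAi replicate 1 (0.0148) or Myc RNAi replicate 2 (0.0121), and without control replicate 1 and Psi RNAi replicate 1 together (0.0147), by edgeR in each case.

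Trf (FBgn0010287, chromosome 2L, 8072895 to 8073948, plus strand) was at 16.0, 15.3 and 14.6 CPM across control libraries, 13.7, 13.6 and 14.1 CPM after Psi RNAi and 11.2, 11.4 and 12.9 CPM after Myc RNAi. The groups formed 3 separate steps, with Psi RNAi between the others. The log2 fold change in Myc RNAi was -0.37 ± 0.08 (edgeR adjusted p = 0.00619, range 0.00339 to 0.0443 over its alternatives). With the replicate number as a block the change was -0.37 and the call was lost (edgeR adjusted p = 0.0114), as it was with only those groups fitted (0.0167), without any control replicate, without Myc RNAi replicate 1 or 2, and without control replicate 1 and Psi RNAi replicate 1 together.

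Brf (FBgn0038499, chromosome 3R, 17374833 to 17391337, minus strand) was the exception in Myc RNAi. Its levels were 86.0, 82.5 and 86.9 CPM across control libraries, 92.6, 97.0 and 90.3 CPM after Psi RNAi and 89.5, 89.7 and 85.3 CPM after Myc RNAi. Myc RNAi overlapped the controls, while all Psi RNAi values lay above both other groups. The change in Myc RNAi was 0.05 ± 0.04 (edgeR adjusted p = 0.406), and its 95% interval of -0.05 to 0.15 leaves out a fall of the size measured for Trf, its partner in TFIIIB. Among the 7 genes Brf also varied least within the controls and within Myc RNAi, with coefficients of variation of 2.70% and 2.80%.

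In Psi RNAi edgeR called 0 of the 7 genes, against 4.07% of all tested genes called, 2.27% lower and 1.8% higher. Brf alone had an edgeR raw p below 0.05 (0.0133), as did 27.5% of all tested genes. DESeq2 called 0 of the 7. It was run on all 17471 genes, and its 873 calls come to 9.45% of the 9235 that edgeR tested, an upper limit for those. The estimates were small, from -0.17 ± 0.12 for RpI12 to 0.13 ± 0.04 for Brf, with a median of -0.04 beside -0.01 for all genes. For the Pol I subunits the 95% intervals were -0.20 to 0.12 for RpI1, -0.19 to 0.13 for RpI135 and -0.43 to 0.10 for RpI12, so that for each gene a fall as large as its own in Myc RNAi lies outside the interval. Tif-IA had an interval of -0.07 to 0.16 and RpIII128 one of -0.26 to 0.08.

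The groups did not overlap for 2 of the 7 genes in Psi RNAi. Trf was lower in all Psi RNAi libraries (-0.15 ± 0.08, edgeR adjusted p = 0.260), where 16.4% of all tested genes were lower without overlap, and Brf was higher in all (edgeR adjusted p = 0.0875, interval 0.03 to 0.23), where 16.4% were higher without overlap. Neither difference passed the threshold.

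Tested directly against Psi RNAi, Myc RNAi was lower without overlap for 7 of the 7 genes, where 24.2% of all genes were lower and 21.7% higher in this way. Of the 7 genes 5 were called lower and 0 higher, where 22.3% of all genes were called, 12.8% lower and 9.53% higher. The log2 differences were -1.79 ± 0.08 for RpI135, -1.51 ± 0.07 for RpI1, -1.07 ± 0.12 for RpI12 and -0.61 ± 0.05 for Tif-IA (edgeR adjusted p from 1.24e-07 to 0.000122). RpIII128 differed by -0.32 ± 0.07 (edgeR adjusted p = 0.00845, range 0.00164 to 0.0382 over its alternatives), a call that was lost in 7 alternatives, among them scaling by DESeq2 size factors, fitting only those groups and leaving out any library but Myc RNAi replicate 3. Brf (-0.08 ± 0.04, edgeR adjusted p = 0.185) and Trf (-0.22 ± 0.08, edgeR adjusted p = 0.0549) did not pass. This comparison shares its Myc RNAi libraries with the comparison against control. The Myc transcript itself was not called between the knockdowns (0.05 ± 0.09, edgeR adjusted p = 0.713).

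The other genes of both polymerases were taken from a list of 29 genes chosen by function, the 7 included, of which 27 could be tested. In Myc RNAi 18 of the 27 were called lower and 0 higher, where 11.4% of all genes were called lower and 7.6% higher. Without overlap 21 were lower and 2 higher, where 24.3% of all genes were lower and 21.7% higher in this way. The median was -0.41, and without the 7 genes it was -0.35 with 12 of 20 called lower. The count ran from 14 to 18 over the alternatives and was 16 with the replicate number as a block, which lost the calls of Trf and Sin. Polr3K and Pbp49 had no reads in any library, and their exons lie wholly within exons of Tcs1 and CG42516 on the same strand, so their level was not measured.

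All 5 Pol I subunits on the list were called lower in Myc RNAi, against 11.4% of all genes, with a median of -1.55. CG18600 (Polr1E, FBgn0038601, chromosome 3R, 18300195 to 18301728, minus strand), which belongs to the dimer that joins Pol I to its initiation factors in yeast, stood at 62.4, 64.1 and 69.3 CPM across control libraries, 47.1, 46.5 and 40.0 CPM after Psi RNAi and 18.2, 19.6 and 18.4 CPM after Myc RNAi. Each group lay wholly below the one before. CG18600 changed by -1.80 ± 0.07 in Myc RNAi (edgeR adjusted p = 1.60e-07), nearly the same as RpI135, and CG13773 (Polr1F), a stalk subunit, by -0.75 ± 0.07.

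CG18600 was also the only one of the 27 tested genes called in Psi RNAi, where its log2 estimate was -0.55 ± 0.07 (edgeR adjusted p = 0.00163, range 7.46e-08 to 0.0110 over its alternatives). A single call among 27 genes is near the 4.07% of all genes called. DESeq2 also called 1 of the 27, against at most 9.45% of all tested genes, and 3 had an edgeR raw p below 0.05, against 27.5%. Without control replicate 1 and Psi RNAi replicate 1 the edgeR count was 0, and CG18600 was at -0.62 ± 0.09 (edgeR adjusted p = 0.0110). The median of the 27 in Psi RNAi was -0.04.

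Among the Pol I factors, TAF1B fell in Myc RNAi with Tif-IA (-0.35 ± 0.07, edgeR adjusted p = 0.00296), whereas the other subunits of the promoter factor, TAF1C-like (-0.11 ± 0.07) and udd (0.11 ± 0.06), did not pass. The call of TAF1B was lost in 4 alternatives, by edgeR without control replicate 1, control replicate 3 or Myc RNAi replicate 1, and without control replicate 1 and Psi RNAi replicate 1, with adjusted p up to 0.0176. Against Psi RNAi, udd was called higher in Myc RNAi (0.23 ± 0.06, edgeR adjusted p = 0.00955), a call lost in 9 of its alternatives, with adjusted p up to 0.0360. Both subunits that Pol I and Pol III share were called lower in Myc RNAi, against 11.4% of all genes. Their estimates lay below that of every Pol III subunit on the list, -1.10 ± 0.08 for CG3756 (Polr1C) and -0.93 ± 0.09 for l(2)37Cg (Polr1D) (edgeR adjusted p = 5.63e-06 and 4.02e-05).

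Of the 8 Pol III subunits tested, 6 were called lower in Myc RNAi, against 11.4% of all genes. All 8 were lower without overlap, against 24.3% of all genes, with estimates from -0.59 to -0.12 and a median of -0.36. The most reduced were CG33051 (Polr3G, -0.59 ± 0.07) and CG12267 (Polr3C, -0.58 ± 0.07), both of the trimer that helps to open promoters. The largest subunit gene, CG17209 (Polr3A), changed by -0.31 ± 0.04, and Sin by -0.22 ± 0.05 with a call lost in 10 alternatives (edgeR adjusted p = 0.00875, at most 0.0417). Rcp (-0.12 ± 0.07) and CG5380 (Polr3F, -0.28 ± 0.07, edgeR adjusted p = 0.0191), which also belongs to that trimer, did not pass. Every Pol I subunit on the list had a lower estimate than every Pol III subunit on it.

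The Pol III factors were mixed, with 3 of 8 called lower in Myc RNAi, against 11.4% of all genes, and a median of -0.24. CG9305, which encodes Bdp1, the remaining subunit of TFIIIB, fell by 0.62 ± 0.05 on the log2 scale (edgeR adjusted p = 8.41e-06), from 62.6, 65.8 and 63.4 CPM to 41.1, 40.2 and 43.3 CPM. Of the TFIIIB genes, CG9305 was thus called lower in Myc RNAi, Trf was called but lost its call in 8 alternatives, the replicate block among them (edgeR adjusted p = 0.0114), and Brf was not called. La, whose protein binds the ends of new Pol III transcripts, changed by -0.76 ± 0.06 (edgeR adjusted p = 5.95e-06). Maf1, the repressor of Pol III, was at -0.11 ± 0.07 and the TFIIIC gene l(2)37Cd at 0.15 ± 0.08, neither past the threshold.

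Subunits shared by all 3 polymerases had lower estimates in Myc RNAi (-0.73 to -0.26) than the Pol II-specific subunits (-0.08 to 0.01). Of the shared subunits 5 of 5 were called lower, against 11.4% of all genes, led by Rpb5 (-0.73 ± 0.06) and Rpb8 (-0.48 ± 0.06), with a median of -0.39. The count dropped to 3 without Myc RNAi replicate 1, where Rpb10 and Rpb12 were lost, and the call of Rpb12 (-0.26 ± 0.06, edgeR adjusted p = 0.00786) was lost in 9 alternatives, with adjusted p up to 0.0329. Of the 6 Pol II-specific subunits tested edgeR called 0, with 0 at a raw p below 0.05 and 0 called by DESeq2. Over all tested genes 19.0% were called by edgeR, 41.5% had such a raw p and at most 25.4% were called by DESeq2. From only 6 genes, these zeros are not read as particular to the list. The largest Pol II subunit gene, RpII215, was at 503, 497 and 529 CPM across control libraries and at 517, 501 and 508 CPM after Myc RNAi. Its change of 0.00 ± 0.05 has a 95% interval of -0.11 to 0.10, and that of the second-largest, RpII140, was -0.03 ± 0.06. In Psi RNAi edgeR called 0 of the 5 shared and 0 of the 6 Pol II-specific subunits, with 0 at a raw p below 0.05 and 0 by DESeq2 in both lists. Over all tested genes edgeR called 4.07% there, 27.5% had such a raw p and DESeq2 called at most 9.45%, so zeros in lists this short show nothing particular to them. Polr2D had no reads, its exons lying within those of Ada2a.

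**Figure D2:**
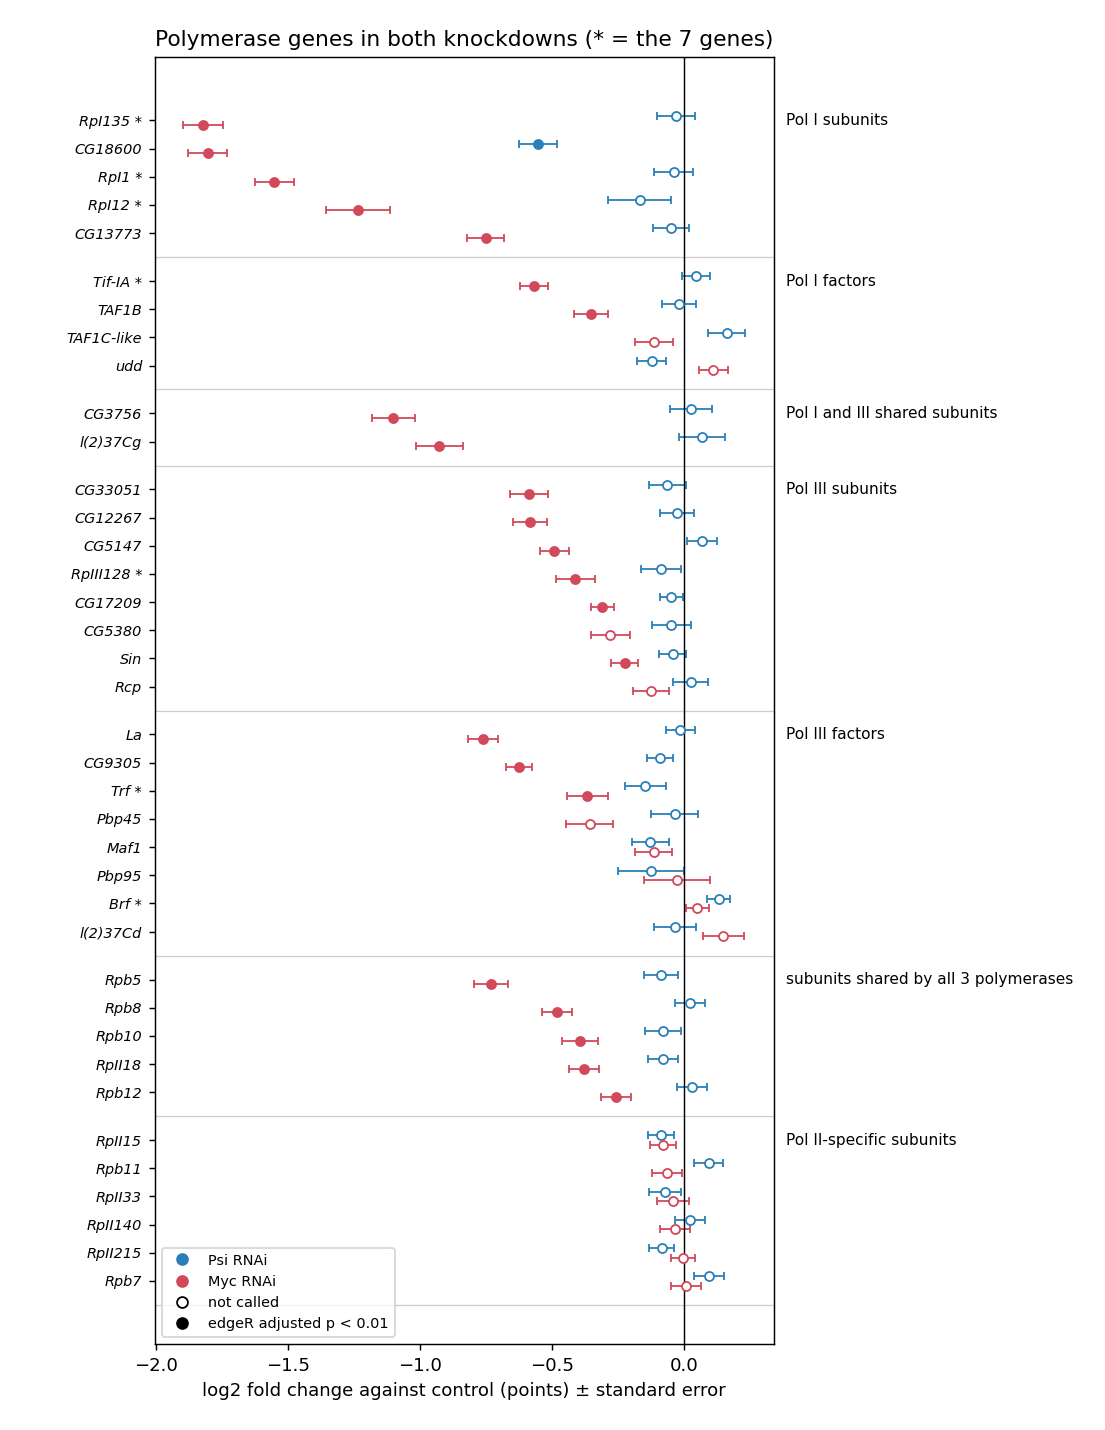
Log2 fold change against control of each tested polymerase gene, with standard error bars, by list; blue is Psi RNAi, red is Myc RNAi, filled circles passed an edgeR adjusted p below 0.01 and asterisks mark the 7 genes. In Myc RNAi the Pol I subunits lie between -1.82 and -0.75, the Pol III subunits between -0.59 and -0.12 and the Pol II-specific subunits around 0, while in Psi RNAi CG18600 alone is filled.

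Relative levels among the 7 genes changed order in Myc RNAi. Per kilobase of exon, the control order was Tif-IA (55.4 ± 2.57 CPM per kb, SD, n = 3), RpI1 (35.6 ± 2.43), Brf (28.6 ± 0.772), RpI135 (26.4 ± 1.56), RpI12 (25.4 ± 2.24), RpIII128 (22.9 ± 1.72) and Trf (15.6 ± 0.709). RpI12 overlapped both its neighbours, and the other neighbours did not overlap. Psi RNAi kept this order, with Tif-IA at 57.1 ± 2.25 and Trf at 14.1 ± 0.253 CPM per kb at the ends, and there RpI1 overlapped Brf and RpI12 overlapped RpIII128.

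In Myc RNAi the order by CPM per kb was Tif-IA (37.4 ± 1.87), Brf (29.6 ± 0.830), RpIII128 (17.3 ± 1.39), RpI1 (12.2 ± 0.913), Trf (12.1 ± 0.950), RpI12 (10.8 ± 1.48) and RpI135 (7.47 ± 0.601). RpI135 thus moved to the last place, RpI1 fell below Brf and RpIII128, and Trf overlapped both RpI1 and RpI12. Each of these genes has a single annotated transcript except Brf with 2, so lengths rest on few gene models.

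**Figure D3:**
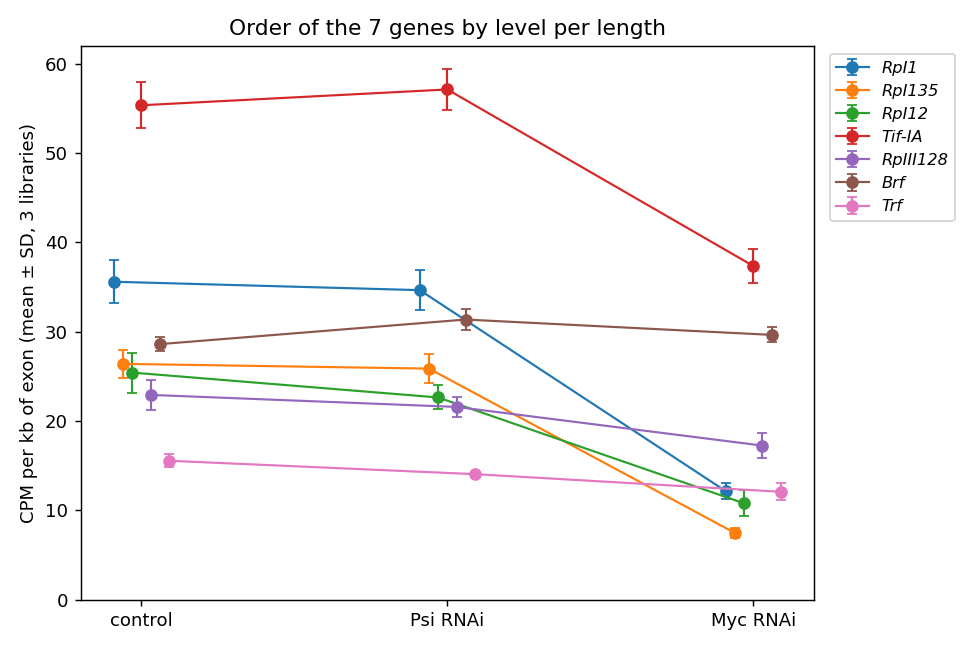
Mean level of the 7 genes in CPM per kilobase of exon (linear axis from 0) in control, Psi RNAi and Myc RNAi, with bars for the SD over 3 libraries and lines that join the means of a gene. The lines of RpI1, RpI135 and RpI12 cross that of RpIII128 on the way to Myc RNAi, and the Brf line stays between 28.6 and 31.4.

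Ratios taken within a library, which do not depend on its scaling, showed the same division. They were picked after the levels were seen and are described without a test. RpI135 to RpII140, the second-largest subunits of Pol I and Pol II, was 0.264 ± 0.00774 per length in control libraries, 0.255 ± 0.0162 after Psi RNAi and 0.0765 ± 0.00237 after Myc RNAi (SD, n = 3). RpI135 to RpIII128 was 1.14, 1.18 and 1.15 in control libraries, 1.18, 1.21 and 1.21 after Psi RNAi and 0.441, 0.427 and 0.431 after Myc RNAi, so that the excess of the Pol I gene over the Pol III gene was turned round in every Myc RNAi library. RpIII128 to RpII140 went from 0.233, 0.218 and 0.238 across control libraries to 0.176, 0.173 and 0.181 after Myc RNAi, again without overlap.

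RpI1 and RpI12 rose relative to RpI135 in Myc RNAi, while the core pair of Pol III overlapped among the groups. These pairs do not stand for all subunits of either polymerase. CG18600 changed nearly as RpI135 did in Myc RNAi (log2 fold changes -1.80 and -1.82). Pol III subunits ran from -0.59 for CG33051 to -0.12 for Rcp there. RpI1 to RpI135, the pair that forms the Pol I core, was 1.38, 1.33 and 1.33 in the controls and 1.70, 1.61 and 1.57 in Myc RNAi, higher in all 3 Myc RNAi libraries. RpI12 to RpI135 likewise went from 0.963 ± 0.0583 to 1.44 ± 0.148. RpIII128 to CG17209, the pair that forms the Pol III core, was 1.43 ± 0.0934 in control libraries, 1.39 ± 0.0624 after Psi RNAi and 1.33 ± 0.0943 after Myc RNAi, with overlapping values. Trf to Brf was 0.562, 0.562 and 0.508 in control libraries, 0.448, 0.425 and 0.473 after Psi RNAi and 0.380, 0.386 and 0.459 after Myc RNAi, lower than every control in both knockdowns, with the knockdowns overlapping.

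**Figure D4:**
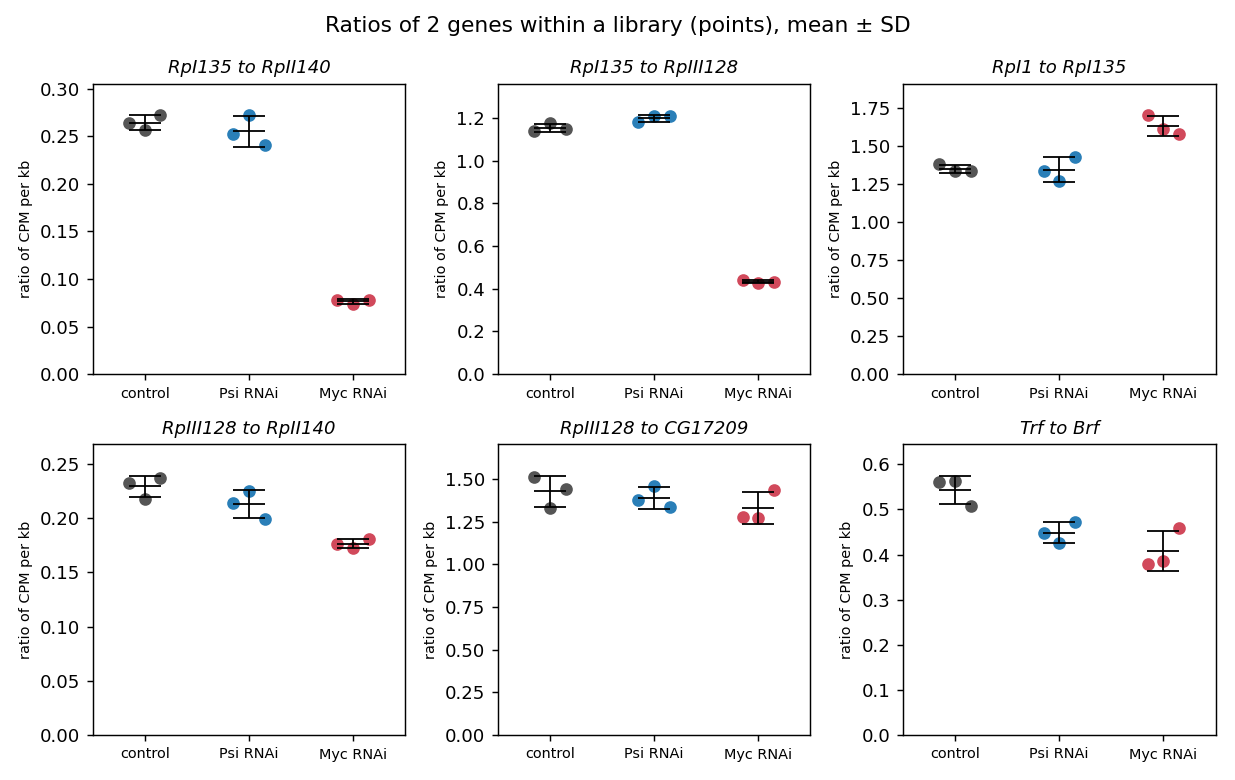
Ratio of the CPM per kilobase of a pair of genes within a library, for control, Psi RNAi and Myc RNAi, on linear axes from 0; points are libraries, the long tick is the mean and the bars are the SD over 3 libraries. RpI135 to RpIII128 lies above 1 in the controls and in Psi RNAi and at 0.427 to 0.441 in Myc RNAi, while RpIII128 to CG17209 overlaps among all groups.

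The genes whose levels were most like those of the 7 were sought among all tested genes off the lists, by Pearson's r over the 9 libraries with the mean of the 7 standardised log2 levels. The closest 5 were CG9630 (r = 0.998), CG4069 (0.997), r (0.996), CG32344 (0.996) and CG12050 (0.995). The gene r, which encodes the enzyme of the first steps of pyrimidine synthesis and is also called rudimentary, averaged 277 CPM across control libraries, 284 CPM after Psi RNAi and 171 CPM after Myc RNAi. All of them had lower means in Myc RNAi than in the other groups, with log2 fold changes against control from -0.70 for r to -1.16 for CG32344. These r values describe 9 points in 3 groups and mostly carry the distance of Myc RNAi from the rest. Likeness to the mean is not likeness to Brf, whose own r with the other members ran from -0.34 with Trf to 0.26 with Tif-IA.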

How the data were processed

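Per the labels, stranded TruSeq libraries enriched with oligo-dT beads were sequenced, and the authors made the deposited counts, whole read pairs per gene in 9 files of 1 library each, with TopHat2 2.1.1 and HTSeq 0.6.1 after FastQC 0.11.6. The 5 summary lines of each file, with 1.28% to 1.90% of pairs in no gene, were left out of totals and tests. The authors' deposited tables hold DESeq2 1.12.0 log2 fold changes and p-values and rMATS splicing results, and only their gene symbols were used here. They hold 28 more columns with values of single libraries, which were left aside. Symbols came from those tables for 13375 of 17471 genes and from a reference table for 4053, and 43 had none.

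Tests across genes used edgeR 4.0.16 under R 4.3.3 (TMM scaling, filterByExpr keeping 9235 genes, a robust quasi-likelihood fit of all 9 libraries with no covariate, Benjamini-Hochberg adjustment, threshold 0.01). Intervals are 95% intervals from the same fit. The biological coefficient of variation was 23.0%, and the test was checked on simulated counts. CPM are relative to TMM-scaled totals, and CPM per kb use exon lengths of the Ensembl annotation of the Release 6 assembly, from which positions also come. The counting was stranded, and exons of the 7 genes overlap only genes on the opposite strand, RpI1 by 7 bases and RpI12 by 11. No libraries of a group agreed within sampling noise (lowest chi-square per degree of freedom 18.1). Whether the pools stem from different crosses is not given in the sources used here, so the p-values cover variation among pools, which may be technical.

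The 7 genes, the lists and the tests were chosen with earlier results of these data known. Named genes are the 7, Psi, Myc, genes on the lists by function and the 5 genes most like the 7 across libraries. The lists could not be widened by gene description, since the reference table used has none, and Polr1G and TfIIIA matched no symbol. One gene first put on the Pol III list is not reported here and was left out of all list counts. Deviations from the group means ran together in control and Myc RNAi libraries of the same number (correlations across genes of 0.309, 0.232 and 0.442, all over 0.1), so these looked paired, from the data alone. The main fit has no term for this pairing. It entered only the alternative with the replicate number as a block, where Trf was not called in Myc RNAi (edgeR adjusted p = 0.0114). Control and Psi RNAi libraries (0.0901 to 0.304) and Myc RNAi and Psi RNAi libraries (-0.21 to 0.03) did not look paired by this rule. Alternatives were DESeq2 1.42.0, its size factors in edgeR, no filter, the replicate number as a block, only the groups compared, each library left out, and control replicate 1 and Psi RNAi replicate 1 left out together, since these were richest in fat body transcripts.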

Additional observations from a re-analysis of the deposited data

How the results depend on the processing

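Of 245 values of the 7 genes under the alternatives, 220 kept direction and side of the threshold, 20 lost a call, 0 gained one and 5 changed sign. The calls of RpI1, RpI135, RpI12 and Tif-IA against control and against Psi RNAi held in each alternative run. The sign changes were all in Psi RNAi against control and near 0: RpI1 was at 0.00983 on the log2 scale without Psi RNAi replicate 1 and at 0.0447 without control replicate 1 and Psi RNAi replicate 1, and RpI135 at 0.00984 without control replicate 3, 0.0153 without Psi RNAi replicate 1 and 0.0325 without both replicates 1. With single libraries left out, RpI1 ranged from -0.0949 to 0.00983 and RpI135 from -0.0788 to 0.0153. Other called list genes gave 449 values, of which 395 kept their call and 54 lost it. The Pol I and Pol III list had 14 to 18 genes called lower in Myc RNAi and 0 called in Psi RNAi without control replicate 1 and Psi RNAi replicate 1. The subunits shared by all 3 polymerases had 3 to 4 called in Myc RNAi with single libraries left out, 3 without Myc RNAi replicate 1.

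Over all genes, Psi RNAi gave 376 calls, 873 with DESeq2, 150 to 305 with 1 library left out and 82 without control replicate 1 and Psi RNAi replicate 1; fewer samples then leave fewer degrees of freedom. With the replicate number as a block, the paired fit gave 421 calls in Psi RNAi, 1894 in Myc RNAi and 2173 between them, and of the 27 list genes tested 2 lost their call in Myc RNAi (Trf and Sin) and udd lost its call between the knockdowns, while no other call of the 7 genes changed. The cause of these changes was not tested. No scaling moved the median of all genes by 0.1 or more. RpI12 had the fewest reads of the 7 genes over all libraries (145 to 427 per library) and the widest standard errors, and whether depth sets those errors was not tested.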

Other observations

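Of 8 growth regulators listed for their known action on Pol I and Pol III, 2 were called lower in Myc RNAi, against 11.4% of all genes, and from so few genes nothing particular to the list is read. They were Max (-0.41 ± 0.04, edgeR adjusted p = 8.37e-05), the DNA-binding partner of Myc, and S6k (-0.49 ± 0.04, edgeR adjusted p = 2.22e-05), a kinase downstream of Tor. S6k stood at 129, 126 and 126 CPM across control libraries, 128, 129.7 and 123 CPM after Psi RNAi and 94.8, 89.0 and 86.8 CPM after Myc RNAi, so that Myc RNAi alone lay apart. Tor (-0.17 ± 0.08), Rheb (-0.12 ± 0.07), raptor (-0.04 ± 0.07) and Mnt (0.01 ± 0.12) did not pass. DESeq2 called 3 of the 8 in Myc RNAi, against at most 25.4% of all tested genes. In Psi RNAi edgeR called 0 of the 8, against 4.07% of all genes, with 2 at a raw p below 0.05, against 27.5%. DESeq2 called 2 there, against at most 9.45%.

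Thor, a translation repressor held in check by Tor, varied more within groups than between them. It was at 44.1, 29.2 and 9.84 CPM across control libraries, 45.4, 10.6 and 6.78 CPM after Psi RNAi and 28.5, 14.8 and 16.0 CPM after Myc RNAi. Replicate 1 was highest in each group, as were the fat body markers, whose part in this was not tested.

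Of the TBP family and TFIIB, edgeR called 0 of 3 genes in Myc RNAi, with 1 at a raw p below 0.05 (Tbp, -0.18 ± 0.05, edgeR adjusted p = 0.0248) and 0 called by DESeq2. Over all tested genes 19.0% were called by edgeR, 41.5% had such a raw p and at most 25.4% were called by DESeq2, so counts over 3 genes show nothing particular to them. Within libraries Trf to Tbp per length was 0.488 ± 0.0348 in the controls and 0.430 ± 0.0289 in Myc RNAi (SD, n = 3). In Psi RNAi edgeR called 0 of the 3, with 2 at a raw p below 0.05 and 1 called by DESeq2, and Trf2 stood highest, at 213, 240.0 and 218 CPM against 163, 187 and 172 CPM across control libraries (0.36 ± 0.10, edgeR adjusted p = 0.0502).

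The subunit gene l(2)37Cg and the TFIIIC gene l(2)37Cd lie close together on chromosome 2L, at 19133023 to 19135233 and 19127260 to 19129326. In Myc RNAi l(2)37Cg went from 13.9, 12.4 and 12.4 CPM to 7.02, 6.63 and 6.72 CPM, whereas l(2)37Cd was at 20.3, 16.9 and 19.7 CPM across control libraries and 21.4, 20.3 and 21.4 CPM after Myc RNAi. This pair was singled out after its values were seen.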
